A study of Mus musculus with 4 samples.

Results

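Amacrine cells were examined as a minority class in a single-cell RNA sequencing experiment on sorted retinal cells of the mouse. They were taken as the barcodes with a summed count of 4 or more unique molecular identifiers (UMIs, each a tagged RNA molecule) over Gad1, Slc32a1, Slc6a9 and Tfap2b, no UMI of Slc17a6, no UMI of Lhx1 and under 10% of UMIs from mitochondrial genes. Of the 3237 barcodes in the matrix 171 met this rule (5.28%, interval 4.54% to 6.11%). They are called members of the amacrine gate below. The mice were of the C57BL/6 strain, were 3 months old and carried the Brn3b::GFP reporter, in which the Brn3b gene (Pou4f2) drives a green fluorescent protein. GFP-positive cells of 4 retinas were enriched by fluorescence-activated sorting, and the labels name the sorted cells retinal ganglion cells (RGCs). All 4 retinas form 1 group with the same genotype, age and treatment. The members were compared with 950 barcodes of an RGC gate (1 or more Slc17a6 UMIs, 3 or more over Rbpms and Slc17a6, at most 1 of Lhx1) and with the other 2116 barcodes.

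Amacrine cells are the inhibitory interneurons of the inner retina. They receive input from bipolar cells and act on bipolar cells, RGCs and each other. Most release either GABA, which is made by the glutamate decarboxylases Gad1 and Gad2, or glycine, which is taken up by the transporter Slc6a9. Slc32a1 loads both transmitters into vesicles, and Tfap2b, an AP-2 transcription factor, is needed for the development of amacrine and horizontal cells. Slc17a6 loads vesicles with glutamate in RGCs, and Lhx1 is a homeodomain factor of horizontal cells.

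The deposited matrix pooled the 4 retinas. Its 3237 barcode names were all distinct, carried 1 shared suffix and named no retina, so the cells formed 1 sample without replicates and no test between samples could be made. All intervals below are 95% intervals that cover counting error alone, and not the spread between retinas or the loss of RNA before counting. Those of CPM and ratios treat summed UMIs as independent, so they also leave out the spread between barcodes. Intervals are exact: Clopper-Pearson for shares above 0, Poisson for CPM and conditional on the summed count for ratios. Members held 3207 to 21624 UMIs each, with a median of 5961. The medians were 15852 UMIs in the RGC gate and 4810 in the other barcodes. Mitochondrial genes held a median of 3.88% of UMIs in members, 3.97% in the RGC gate and 7.72% in the other barcodes. A row named EGFP was at 0 UMIs in all 3237 barcodes, so it gave no check on the sort. A doublet caller marked 6 of the 171 members, which were kept.

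The 4 genes of the rule chose the members, so their values are a description only. The sum over the 4 genes ran from 4 to 37 UMIs with a median of 13. Tfap2b was found in 161 members and Slc32a1 in 142. Gad1 was found in 110 members and Slc6a9 in 32, and both were found together in 4. All 110 Gad1-positive members had more Gad1 than Slc6a9 UMIs, and they are called Gad1-led. The other 28 with Slc6a9 had no Gad1 and are called Slc6a9-led. The remaining 33 members had neither gene and had passed on Tfap2b and Slc32a1. Just inside the threshold, 8 members had a sum of exactly 4. Just outside it, 3 barcodes with a sum of 3 met every other condition. Another 22 barcodes with a sum of 4 or more were kept out by a single Slc17a6 UMI, and 12 of these had Gad1. A further 53 were kept out by a single Lhx1 UMI while under the mitochondrial maximum, and all 53 had Onecut2.

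**Figure D1:**
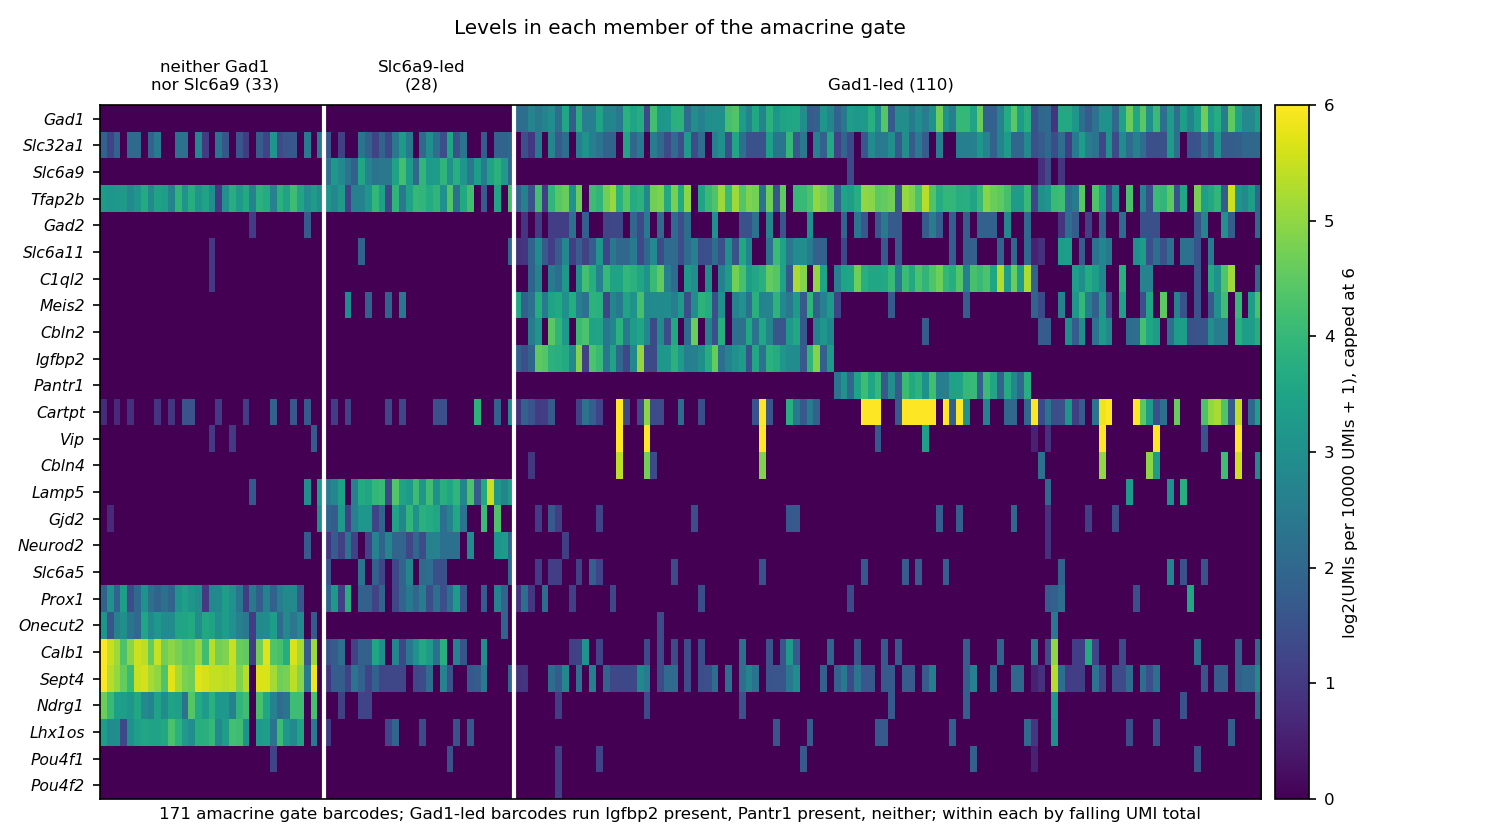
Each column is 1 of the 171 members and each row a gene, and the colour gives log2 of UMIs per 10000 UMIs plus 1, capped at 6. The 33 members with neither Gad1 nor Slc6a9 form the left block, the 28 Slc6a9-led members the middle block and the 110 Gad1-led members the right block. Onecut2, Calb1, Sept4, Ndrg1 and Lhx1os fill the left block, Lamp5, Gjd2 and Neurod2 the middle block, and Gad2, C1ql2, Meis2, Cbln2, Igfbp2 and Pantr1 parts of the right block.

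The label amacrine did not hold for the 33 members with neither Gad1 nor Slc6a9. Their leading genes were those of the horizontal gate, a set of 456 barcodes with 2 or more Lhx1 UMIs and no Slc17a6. Onecut2, a transcription factor of horizontal cells, was found in 31 of the 33 with a median of 7 UMIs, in all 456 barcodes of the horizontal gate with a median of 8, and in 2 of 110 Gad1-led members. Levels are given in CPM, the UMIs of a gene in a set of barcodes scaled to a total of 1000000 UMIs. Calb1, the calcium buffer calbindin, stood at 3089 CPM in the 33, 3441 CPM in the horizontal gate and 139.8 CPM in Gad1-led members. Sept4, a septin, stood at 3621 CPM in the 33, 3855 CPM in the horizontal gate and 235 CPM in Gad1-led members. Ndrg1, a stress-responsive gene, stood at 1040.3 CPM in the 33, 1039 CPM in the horizontal gate and 23.8 CPM in Gad1-led members. The 33 stood beside the horizontal gate and far from the Gad1-led members on each of these genes. Of 8 horizontal cell markers 7 were detected in the 33, where Lhx1 is at 0 by the rule. Their summed level was 11498 CPM in the 33, from 227 to 19863 CPM per barcode, 12595 CPM in the horizontal gate and 635 CPM in Gad1-led members.

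Lhx1os, a transcript named as the opposite strand of Lhx1, was found in 30 of the 33 although the rule had set Lhx1 to 0 in all of them. Whether counting used strand is not given in the sources used here, so reads of Lhx1os and its partner cannot be told apart. Of 3487 genes ranked between the 33 and the Gad1-led members, 249 (7.14%) were past 2-fold higher and 446 (12.8%) past 2-fold lower in the 33. Between the 33 and the horizontal gate the shares were 1.11% higher and 2.3% lower, of 8254 genes. Onecut2 was 73-fold (33 to 201) higher in the 33 than in Gad1-led members, Ndrg1 43.7-fold (26.5 to 77.4) and F2r, a thrombin receptor, 38.6-fold (18.2 to 97.9). Some genes of Gad1-led barcodes were at or near 0 in the 33, and others were not, as given for C1ql1 below. Meis2, a homeodomain factor, had 0 UMIs in the 33 and was at least 52.7-fold lower than in Gad1-led members. Cbln2 was also at 0 and at least 48-fold lower. Gad2 had 2 UMIs, or 6.32 CPM in the 33 against 128 CPM in Gad1-led members. Onecut2 was missing from 2 of the 33. The 33 held 27.2% of all UMIs of the gate, so results for the whole gate are given beside those for the 138 members with Gad1 or Slc6a9, a division made after the values were seen.

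The factor behind the reporter and its 2 sister genes were nearly absent from the members. Pou4f2 had 1 UMI in 1 of 171 members, against a UMI in 561 of 950 RGC gate barcodes. Because depth differed, each barcode was thinned to 3000 UMIs before shares were compared. At that depth Pou4f2 was found in 0 of 171 members, which by the limit of 3 counts allows a share of up to 1.75%, and in 22.6% (20% to 25.4%) of the RGC gate. Its share was 1.6% in 187 barcodes of a microglia gate (4 or more UMIs over C1qa, C1qb and C1qc), all outside the amacrine and RGC gates, a class that should lack it. Pou4f1, the related factor Brn3a, was found at that depth in 1.75% (0.363% to 5.04%) of members, 66.6% (63.5% to 69.6%) of the RGC gate and 5.35% of the microglia gate. The members' shares of both factors were thus no higher than in microglia gate barcodes. Pou4f3 had no UMI in any member and was found in 389 of 950 RGC gate barcodes.

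**Figure D2:**
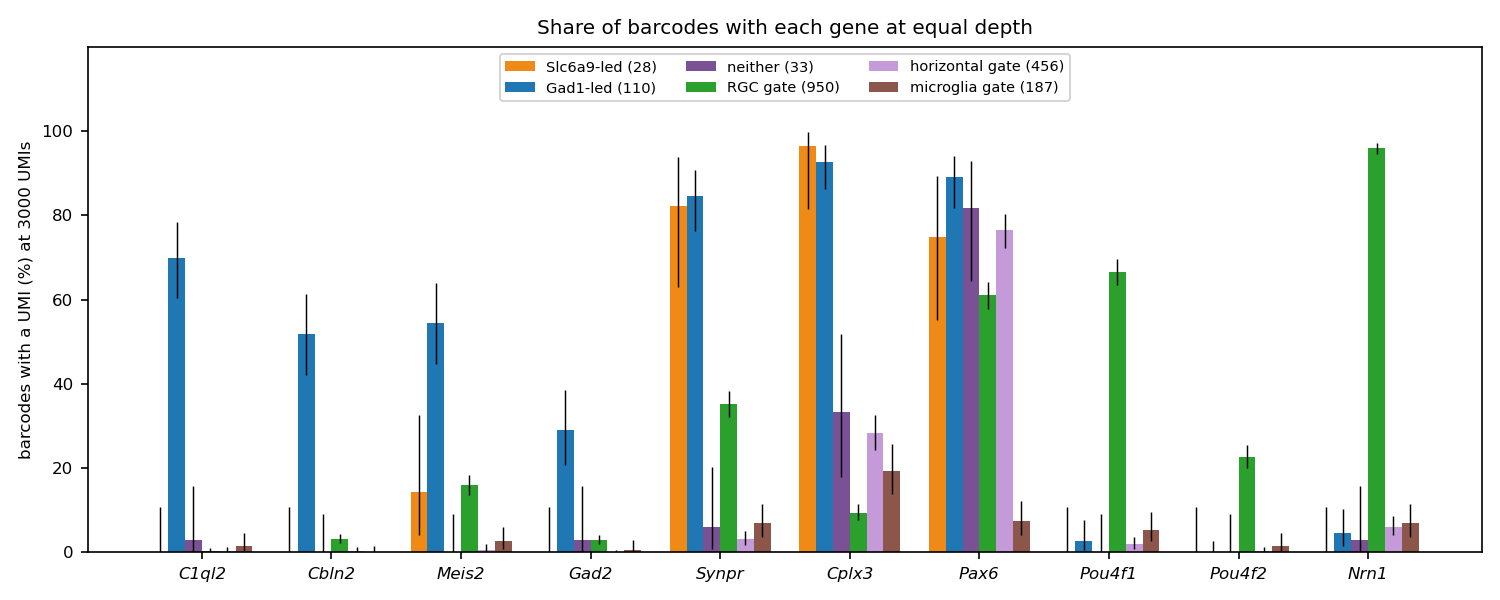
Bars give the share of barcodes in which a gene had a UMI after thinning to 3000 UMIs, with exact 95% binomial intervals as whiskers (for a share of 0, the limit of 3 counts) for 6 sets. C1ql2, Cbln2, Meis2 and Gad2 were highest in Gad1-led members, Synpr and Cplx3 in both Gad1-led and Slc6a9-led members, and Pou4f1, Pou4f2 and Nrn1 in the RGC gate.

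Set against the RGC gate, C1ql2, C1ql1, Cplx3, Lamp5 and Igfbp2 had the highest ratios in members and Nrn1, Pou4f1, Ebf1 and Srgap1 the lowest, with 5 CPM added. Of 9970 genes with 100 or more UMIs over both sets, 520 (5.22%) were past 2-fold higher and 805 (8.07%) past 2-fold lower in members, with 5 CPM added to each side. The rule had chosen both sets from their counts, so these numbers describe the sets and test nothing. The 138 members with Gad1 or Slc6a9 gave 5.41% higher and 8.25% lower of 9912 genes.

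C1ql2, a secreted C1q-like protein that organizes synapses, had the highest ratio with 5 CPM added. It was found in 83 of 171 members with a highest count of 17 UMIs, and in 20 of 950 RGC gate barcodes with a highest count of 5. Its level was 477 CPM (438 to 518) in members and 1.68 CPM (1.11 to 2.44) in the RGC gate, 284-fold (193 to 435) higher. Of the 83 members with C1ql2, 82 were Gad1-led, 1 had neither Gad1 nor Slc6a9 and none was Slc6a9-led. The related C1ql1 stood at 1162 CPM (1101 to 1225) in members and 23 CPM (20.7 to 25.5) in the RGC gate. C1ql1 stood at 205 CPM in the Slc6a9-led, 1264 CPM in the Gad1-led and 1474 CPM in the 33 with neither gene, so it was lowest in the Slc6a9-led. The 33 held 466 of its 1352 UMIs in members, with a median of 15 UMIs. It was also found in 454 of 456 horizontal gate barcodes with a median of 14 UMIs, so it was not particular to amacrine members.

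Cplx3, a complexin that controls vesicle fusion, was 39.9-fold (36.4 to 43.7) higher in members than in the RGC gate, at 1589 CPM in members against 39.8 CPM in the RGC gate. It was found at 3000 UMIs in 96.4% of Slc6a9-led, 92.7% of Gad1-led, 9.37% of RGC gate and 19.3% of microglia gate barcodes. Its share was 28.3% in the horizontal gate and 52.6% in all other barcodes, so Cplx3 was not confined to members. Synpr, a vesicle membrane protein, was found in 82.1% of Slc6a9-led, 84.5% of Gad1-led and 35.2% of RGC gate barcodes. Both genes were thus shared by the 2 kinds of member, unlike C1ql2. Tfap2a, the AP-2 factor next of kin to Tfap2b, was 170.1-fold (89.4 to 364) higher in members than in the RGC gate, at 106 CPM in members against 0.621 CPM in the RGC gate. Pantr1, a noncoding RNA, was 318-fold (132 to 998) higher, Lamp5, a lysosomal membrane protein of neurons, 118-fold (77.7 to 186), and Igfbp2, which binds insulin-like growth factors, 37.2-fold (29.8 to 46.7). Cbln2, a secreted partner of neurexins, was 29.4-fold (24 to 36.1) higher, Car2, a carbonic anhydrase, 20.5-fold (18.9 to 22.3), Shisa8, an accessory protein of AMPA receptors, 23.9-fold (18.6 to 30.9), and Kcna5, a potassium channel subunit, 25.9-fold (19.6 to 34.5).

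The lowest ratios included well-known RGC genes. Nrn1, which encodes neuritin, was found in 21 of 171 members and 948 of 950 RGC gate barcodes, and its level was 18.9 CPM (11.8 to 28.6) in members against 1382 CPM (1364 to 1400) in the RGC gate, 73.1-fold (48.3 to 117) lower. Pou4f1 was 68-fold (34.5 to 158) lower, the transcription factor Ebf1 43.8-fold (28.4 to 71.8) and Rbpms2, a sister gene of the RGC marker Rbpms, 26.2-fold (17.6 to 40.9). Sncg, which encodes gamma-synuclein, was 23.9-fold (20.8 to 27.7) lower and Pvalb, the calcium buffer parvalbumin, 25.1-fold (16.2 to 41.1). Srgap1, a signalling protein of the Slit and Robo pathway, was 61.7-fold (24.1 to 227) lower. At 3000 UMIs Sncg was found in 39.8% of members, 99.8% of the RGC gate and 32.6% of the microglia gate. In the 138 members with Gad1 or Slc6a9 the share was 33.3%, which is close to the microglia gate. Whether these UMIs are free RNA was not tested.

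Some genes of the whole gate belonged to the 33 members with neither Gad1 nor Slc6a9. Onecut2 stood at 183 CPM in all members and 33.3 CPM in the RGC gate, but at 8.26 CPM in the 138. Lmo1, a LIM-only protein, stood at 342 CPM in all members and 138 CPM in the RGC gate, but at 36.6 CPM in the 138. Both were thus past 2-fold higher over the RGC gate with the 33 and past 2-fold lower without them. Vim, an intermediate filament gene, stood at 587 CPM in all members, 75.5 CPM in the 138 and 28.1 CPM in the RGC gate. A single barcode held 41 of the 64 Vim UMIs of the 138, which without it stood at 27.5 CPM.

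The gene groups below are counted for the 138 members over the RGC gate, among listed genes with enough UMIs to be ranked. Of all ranked genes 5.41% were past 2-fold higher and 8.25% past 2-fold lower, with a median log2 ratio of 0.03. List counts near these shares are not read as a result about the list. Of 7 transmitter genes 4 were past 2-fold higher and 0 lower, with a median of 1.26. Gad2 stood at 101 CPM (81.2 to 125) in the 138 and 12.5 CPM (10.8 to 14.3) in the RGC gate. Slc6a11, a GABA transporter gene, stood at 205 CPM in the 138 and 82.7 CPM in the RGC gate. The vesicular glutamate transporter Slc17a7, a gene of photoreceptors and bipolar cells, was at 89.7 CPM in 25 of the 138 and at 15.3 CPM in the RGC gate. All 8 rod markers were detected in both sets, and their sum had a median of 470.2 CPM per barcode and a highest value of 47892 CPM in the 138, against 422.5 CPM and 18096 CPM in the RGC gate. Their part in the Slc17a7 value was not tested.

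Of 31 listed transcription factors 7 were past 2-fold higher and 9 lower in the 138 than in the RGC gate. Pax6, needed for the retinal progenitor and kept in amacrine cells and RGCs, was found in 167 of 171 members at 625 CPM and in 915 of 950 RGC gate barcodes at 355 CPM. Meis2 stood at 411 CPM in the 138 and 93.7 CPM in the RGC gate, and Nfia, a nuclear factor I gene, at 89.7 CPM in the 138 and 11 CPM in the RGC gate. On the low side, Ebf1 stood at 20.1 CPM in the 138 and 753 CPM in the RGC gate, and Eomes, a T-box factor of some RGC types, at 1 UMI in the 138 and 26.7 CPM in the RGC gate. Of 23 RGC identity and axon genes 0 were past 2-fold higher and 20 lower, with a median of -2.51. This list holds genes known from RGCs, and it includes Thy1, a surface protein, which stood at 278 CPM in 83 of the 138 against 1606 CPM in the RGC gate. Nefl, a neurofilament gene, stood at 72 CPM in the 138 and 1990 CPM in the RGC gate.

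Of 22 amacrine type markers 10 were past 2-fold higher and 10 lower in the 138. Among 15 peptide genes 4 were higher (Vip, Sst, Npy and Cartpt) and 7 lower. Without its richest barcode Sst stood at 1.2 CPM in the 138 against 0.621 CPM in the RGC gate, and Cartpt at 2669 CPM in the 138 against 1488 CPM in the RGC gate, so both were then within 2-fold. Among 13 genes of peptide processing 2 were higher (15.4%) and 0 lower, against 5.41% and 8.25% of all ranked genes. Adcyap1, which encodes PACAP, a relative of VIP, stood at 3.54 CPM in the 138 and 42.8 CPM in the RGC gate. The granin gene Chgb stood at 445 CPM in the 138 and 161 CPM in the RGC gate.

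Genes of electrical signalling leaned toward the RGC gate. Of 33 voltage-gated channel genes 3 were past 2-fold higher (9.09%) and 14 lower (42.4%) in the 138, with a median of -0.75. The shares over all ranked genes were 5.41% and 8.25%. The sodium channel genes Scn1a, Scn2a1 and Scn8a stood at 40.1, 51.9 and 33 CPM in the 138 and at 157, 189.7 and 138 CPM in the RGC gate. The 3 on the high side were the calcium channel genes Cacna2d3, Cacna2d2 and Cacna1d, with Cacna2d2 at 169 CPM in the 138 and 70.1 CPM in the RGC gate. Of 16 calcium-binding protein genes 2 were higher and 8 lower. Calb2, which encodes calretinin, stood at 496 CPM in the 138 and 5491 CPM in the RGC gate. A single barcode held 121 of the 420 Calb2 UMIs of the 138.

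Of 40 transmitter receptor genes 4 were past 2-fold higher (10%) and 9 lower (22.5%) in the 138. The shares over all ranked genes were 5.41% and 8.25%. The nicotinic subunits Chrna6 and Chrnb3 stood at 10.6 and 13 CPM in the 138, against 260.5 and 177 CPM in the RGC gate. The metabotropic glutamate receptor Grm5 stood at 44.8 CPM in the 138 and 13.7 CPM in the RGC gate, and the dopamine receptor Drd1 at 57.8 CPM in the 138 and 19.6 CPM in the RGC gate. The other 2 on the high side were Gabrr1 and Gabrr2, GABA receptor subunits known from bipolar cells, at 38.9 and 31.9 CPM in the 138 against 4.72 and 5.72 CPM in the RGC gate. All 10 bipolar markers were detected in both sets, and their sum had a median of 283.4 CPM per barcode and a highest value of 19499 CPM in the 138, against 324.4 CPM and 7822 CPM in the RGC gate. Their part in the Gabrr1 and Gabrr2 values was not tested. Of 34 presynaptic genes 3 were higher (Cplx3, the syntaxin Stx3 and Synpr) and 8 lower, among them Cplx1, which stood at 83.8 CPM in the 138 and 437 CPM in the RGC gate. Of 57 adhesion genes 7 were higher and 16 lower. Sdk1, a sidekick adhesion protein of inner retinal layers, stood at 64.9 CPM in the 138 and 10.7 CPM in the RGC gate, and the protocadherin Pcdh7 at 22.4 CPM in the 138 and 136 CPM in the RGC gate. Of 13 immediate-early genes, which cells switch on within minutes of a stimulus, 0 were past 2-fold either way.

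**Figure D3:**
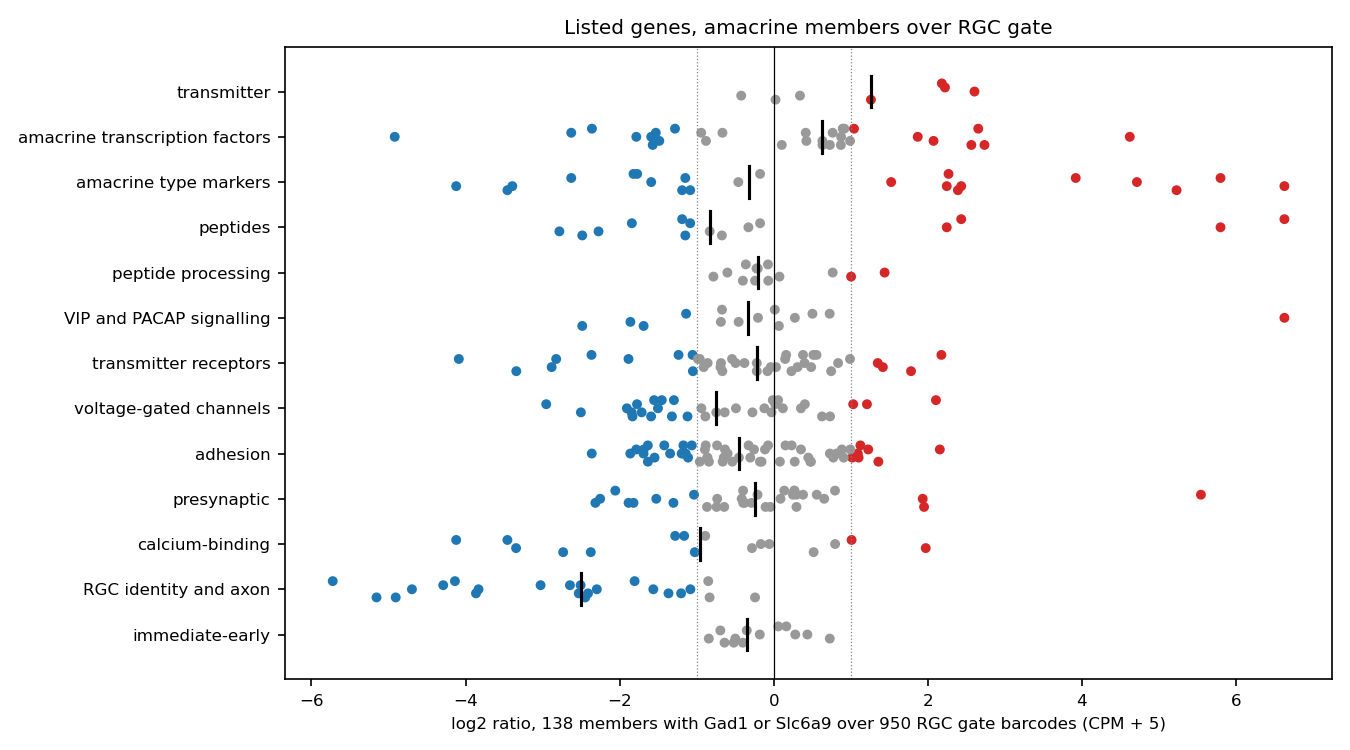
Each point is a listed gene with enough UMIs to be ranked, placed by its log2 ratio of the 138 members with Gad1 or Slc6a9 over the 950 RGC gate barcodes, with 5 CPM added to both. Vertical bars give list medians, dotted lines 2-fold, red points genes past 2-fold higher and blue points genes past 2-fold lower. The RGC identity and axon list has 20 of 23 genes on the low side and the transmitter list 4 of 7 on the high side.

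Set against the 2116 other barcodes, which hold horizontal, bipolar, photoreceptor, glial and microglial genes, Cartpt, C1ql2, Cbln2 and Igfbp2 had the highest ratios in members and Id3, Timp3, Cryab and Apoe the lowest. Of 10169 genes 309 (3.04%) were past 2-fold higher and 617 (6.07%) past 2-fold lower in members, and without the 33 the counts were 471 (4.65%) and 874 (8.63%) of 10127. Cbln2 was 54.5-fold (41.8 to 72) higher in members, found in 66 of 171 members and 26 of 2116 other barcodes. C1ql2 was 47.4-fold (39.3 to 57.4) higher, Pantr1 48.1-fold (31.8 to 74.9), Gad2 22.2-fold (15.5 to 32.3) and Meis2 14.3-fold (12.2 to 16.8). Mn1, a transcriptional coregulator, was 27-fold (17.4 to 42.7) higher. C1ql2, Cbln2, Igfbp2, Pantr1, Lamp5 and Shisa8 were among the 12 leading genes over the RGC gate and over the other barcodes alike. The genes lowest in members included those of glia. Apoe, a lipid carrier, stood at 165 CPM (142 to 190) in members and 1933 CPM (1909.8 to 1956) in the other barcodes, 11.7-fold (10.2 to 13.6) lower. Aqp4, the water channel of Müller glia, was 26.7-fold (9.12 to 129.8) lower, Rlbp1, a retinoid-binding protein of the visual cycle, 12.2-fold (7.88 to 20), and Id3, an inhibitor of DNA binding, 57.6-fold (19.7 to 279.7).

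For the 138 over the other barcodes, the presynaptic list leaned to the high side, unlike in the comparison with the RGC gate. Of 35 genes 16 were past 2-fold higher and 1 lower, with a median of 0.96 against 0.03 over all ranked genes. Of all ranked genes 4.65% were higher and 8.63% lower. Syt7, a calcium sensor of release, stood at 189 CPM in the 138 and 17.9 CPM in the other barcodes, and Syt1, its fast counterpart, at 1139.8 CPM in the 138 and 476 CPM in the other barcodes. Of 29 voltage-gated channel genes 11 were higher and 2 lower. The potassium channel genes Kcna1 and Kcnc2 stood at 99.1 and 70.8 CPM in the 138 and at 5.25 and 6.38 CPM in the other barcodes. Of 14 immediate-early genes 1 was higher (Npas4) and 8 were lower, with a median of -1.35. Fos stood at 245 CPM in the 138, 354 CPM in the RGC gate and 661 CPM in the other barcodes, and Ier2 at 72 CPM in the 138, 82.3 CPM in the RGC gate and 379.9 CPM in the other barcodes. The other barcodes also had the higher mitochondrial share given above, and its part in these values was not tested.

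The 28 Slc6a9-led members lacked many of the genes that led in the 110 Gad1-led members, and several other genes were higher in the Slc6a9-led. Median depth was 6459 UMIs in the Slc6a9-led and 5569 UMIs in the Gad1-led. Of 3082 genes with 50 or more UMIs over both sets 107 (3.47%) were past 2-fold higher and 288 (9.34%) past 2-fold lower in the Slc6a9-led. Among listed genes, 5 transcription factors were higher and 6 lower of 16 ranked, and 0 peptide genes were higher and 5 lower of 6. Gad2 had 0 UMIs in the 28 and was at least 7.47-fold lower than in the Gad1-led, where 55 of 110 had it. C1ql2, with 0 UMIs in the 28 and 554 UMIs in 82 of the 110, was at least 48.1-fold lower. Vip, Cbln2, Igfbp2, Cbln4 and Pantr1 also had 0 UMIs in the 28. They were at least 46.9-fold lower for Vip, at least 26.6-fold for Cbln2, at least 25.7-fold for Igfbp2, at least 12-fold for Cbln4 and at least 9.99-fold for Pantr1. Meis2 was found in 4 of the 28 and 71 of the 110. These bounds set a floor of 3 UMIs over the 28 barcodes, which at 175236 UMIs in all is 17.1 CPM.

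**Figure D4:**
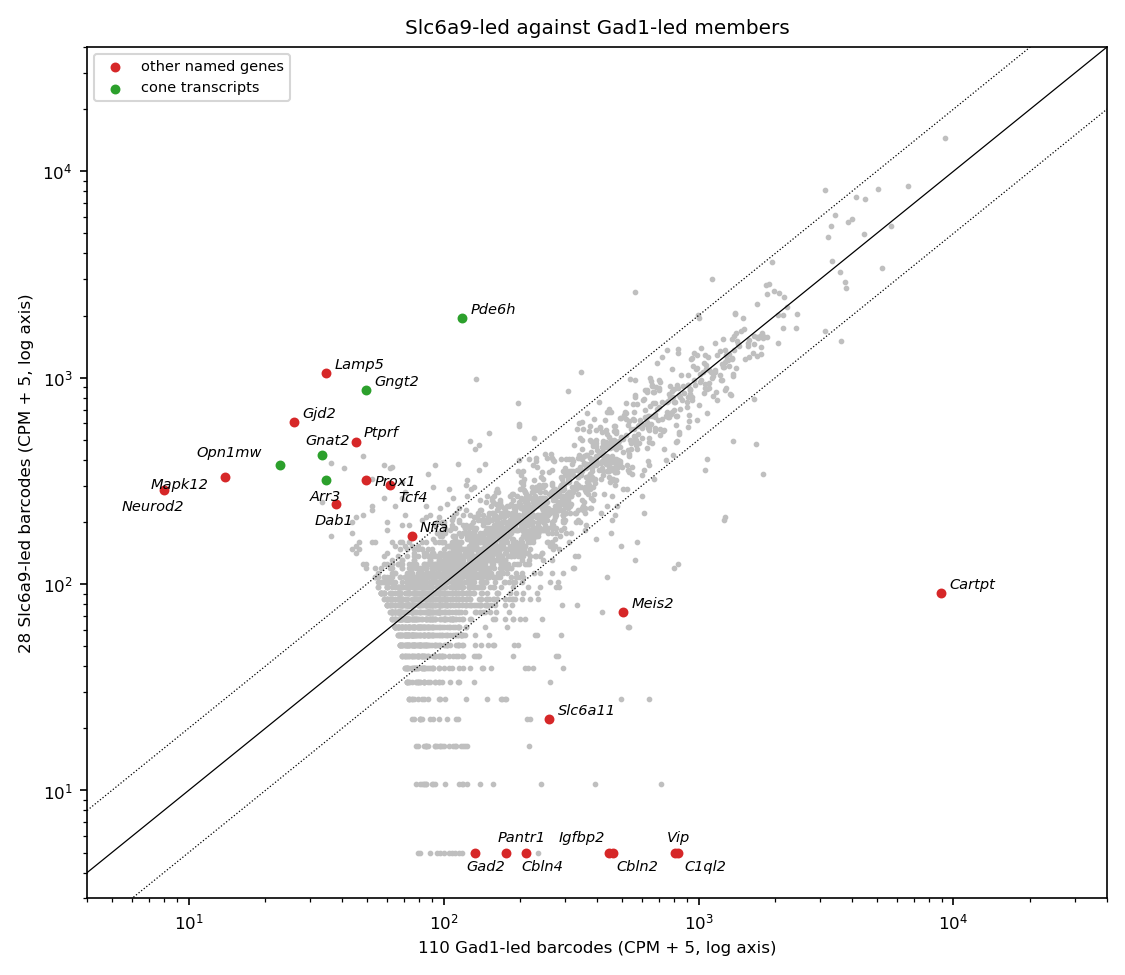
Each point is a ranked gene, placed by its level in the 28 Slc6a9-led members (vertical) and the 110 Gad1-led members (horizontal), as CPM plus 5 on log axes. The solid line marks equal levels and the dotted lines 2-fold. Neurod2, Lamp5, Gjd2 and Mapk12 lie far above the line with 5 cone genes in green, and C1ql2, Vip, Cbln2, Igfbp2, Cbln4, Pantr1 and Gad2 lie at 0 UMIs in the Slc6a9-led.

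The genes that led in the Slc6a9-led members included several known from AII amacrine cells, which pass rod signals to cone bipolar cells through gap junctions. Lamp5 was found in 27 of 28 with a median of 6 and a highest count of 18 UMIs, and in 4 of 110 Gad1-led members. Its level was 1050 CPM (904 to 1213) in the Slc6a9-led and 29.7 CPM (18.2 to 45.9) in the Gad1-led, 35.3-fold (22.2 to 59.1) higher. Gjd2, which encodes the gap junction protein connexin 36, was found in 22 of 28 with a median of 3.5 UMIs and in 13 of 110, where no barcode had more than 2. It was 29-fold (16.6 to 54.9) higher. Neurod2, a basic helix-loop-helix factor, was found in 23 of 28 and 2 of 110 and was 94-fold (24.7 to 798) higher. For all 3 genes the Slc6a9-led barcodes were mostly positive and the Gad1-led barcodes mostly at 0.

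Dab1, an adaptor of the reelin pathway, was found in 21 of 28 Slc6a9-led members at 239.7 CPM and in 15 of 110 Gad1-led members at 32.7 CPM. Prox1, a homeodomain factor, was found in 22 of 28 at 314 CPM and in 13 of 110 at 44.6 CPM. Calb2 stood at 702 CPM in the Slc6a9-led and 442 CPM in the Gad1-led, and Nfia at 165 CPM in the Slc6a9-led and 69.9 CPM in the Gad1-led. A single Gad1-led barcode held 121 of the 297 Calb2 UMIs of the Gad1-led. The kinase gene Mapk12 was 36.4-fold (15.8 to 103) higher, the receptor phosphatase gene Ptprf 12.1-fold (7.75 to 19.4), and the dopamine receptor gene Drd4 stood at 131 CPM in the Slc6a9-led and 8.92 CPM in the Gad1-led. A few Slc6a9-led barcodes were rich in cone genes, as given below, and their part in the Drd4 value was not tested. Scn1a, which was low in the gate as a whole, stood at 165 CPM in 15 of 28 Slc6a9-led members and 7.44 CPM in 5 of 110 Gad1-led members. The RGC gate stood at 157 CPM, so the Slc6a9-led level was close to it and the Gad1-led level far below. Slc6a5, the glycine transporter of glycine-releasing terminals, was found in 12 of 28 at 126 CPM and in 16 of 110 at 31.2 CPM, so it did not follow the Slc6a9 split as sharply.

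Of the 22 Slc6a9-led barcodes with Gjd2, 21 had Prox1, 21 had Lamp5, 21 had Calb2, 19 had Neurod2, 18 had Dab1 and 13 had Nfia. Of the 6 without Gjd2, 1 had Prox1, 6 had Lamp5, 4 had Calb2, 4 had Neurod2, 3 had Dab1 and 0 had Nfia. Median depth was 6940.0 UMIs in the 22 and 4208.5 UMIs in the 6, and its part in these counts was not tested. The carbonic anhydrase gene Car3 was found in 3 Slc6a9-led barcodes, none of which had Gjd2. These partner genes were picked after their values were seen.

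The 5 cone genes that ranked high in the Slc6a9-led members rested on few barcodes. Pde6h, the inhibitory subunit of the cone phosphodiesterase, stood at 1935 CPM in the Slc6a9-led and 113 CPM in the Gad1-led, and 4 of the 28 barcodes held 334 of the 339 UMIs. Without the barcodes that had 10 or more Pde6h UMIs, which were 4 Slc6a9-led and 1 Gad1-led, the level was 35.3 CPM in the Slc6a9-led and 48.0 CPM in the Gad1-led. The log2 ratio was then -0.40 for Pde6h, -1.14 for the opsin gene Opn1mw and -0.73 for the transducin gene Gnat2. It was 1.17 for Gngt2, another transducin gene, and 0.20 for the arrestin gene Arr3, and those for Lamp5, Gjd2 and Neurod2 were 5.04, 4.62 and 5.24. The 4 barcodes carried 3 to 5 Slc6a9 UMIs each and no Gad1. Summed cone markers had a median of 210.9 CPM per barcode in the Slc6a9-led and 175.6 CPM in the Gad1-led.

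The Gad1-led members were themselves divided by genes that seldom met. Igfbp2 was found in 47 of the 110 and Pantr1 in 29, and no barcode had both, which leaves 34 with neither. The median depth was 6122 UMIs in the Igfbp2 barcodes, 4119 UMIs in the Pantr1 barcodes and 5664.5 UMIs in the 34. These genes were picked after their values were seen, so the division is a description. Meis2 was found in 46 of 47 Igfbp2 barcodes at 744 CPM, in 3 of 29 Pantr1 barcodes at 23.6 CPM and in 22 of the 34. Cbln2 was found in 39 of 47 Igfbp2 barcodes, 1 of 29 Pantr1 barcodes and 26 of the 34. The Pantr1 barcodes thus lacked both genes almost entirely. Ucma, a small secreted protein gene, was found in 27 of the 47, 0 of the 29 and 1 of the 34, and the LIM-homeodomain gene Lhx9 in 19 of the 47, 0 of the 29 and 4 of the 34.

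Other genes were more often found in the Pantr1 barcodes than in the Igfbp2 barcodes. C1ql2 was found in all 29 at 1486 CPM, in 38 of the 47 Igfbp2 barcodes at 899 CPM and in 15 of the 34. The homeodomain gene Six3 was found in 19 of 29 Pantr1 barcodes, 8 of 47 Igfbp2 barcodes and 20 of the 34, and the granin gene Scg2 in 26 of 29 Pantr1 barcodes, 10 of 47 Igfbp2 barcodes and 18 of the 34. Fxyd6, a modulator of the sodium pump, was found in 23 of 29 Pantr1 barcodes, 7 of 47 Igfbp2 barcodes and 15 of the 34. Gad2 was common to both, found in 24 of the 47 Igfbp2 barcodes, 17 of the 29 Pantr1 barcodes and 14 of the 34.

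Neuropeptide genes were concentrated in few members. Vip, which encodes vasoactive intestinal peptide, a peptide of some GABA-releasing amacrine cells, had 543 UMIs in 14 members. Of these, 7 had 2 or more UMIs and 7 had exactly 1. The 7 had 135, 115, 89, 84, 70, 39 and 4 UMIs, and all 7 were Gad1-led. A UMI of Vip was found in 24 of 950 RGC gate barcodes, never more than 1 per barcode, and in 17 of the 2116 others with at most 6. At 3000 UMIs Vip was found in 5.26% of members, 0.421% of the RGC gate and 1.07% of the microglia gate. The other 7 members had 1 Vip UMI by definition, so this count cannot tell them from the 24 RGC gate barcodes with 1. Cartpt, which encodes a peptide named for its response to cocaine and amphetamine, had 6013 UMIs in 89 members. A single Gad1-led barcode held 3794 of them (63.1%), and without it the level in the gate was 1943 CPM in place of 5167 CPM, against 1488 CPM in the RGC gate. Sst, which encodes somatostatin, had 261 UMIs, of which 260 lay in 1 Gad1-led barcode. Npy, which encodes neuropeptide Y, had 149 UMIs in 24 members, 5 of them Gad1-led with 71 UMIs and 19 of them with neither Gad1 nor Slc6a9.

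The stretch of 150 bases before the RefSeq start is shown for Vip, Cartpt and Sst. Their upstream regions are known to respond to cyclic AMP, and Vip and Cartpt occurred together below. Capitals mark the cyclic AMP response element, in full (TGACGTCA, its own reverse complement) or as its first 6 bases (TGACGT, read on either strand). Sequences are from RefSeq on build GRCm38.p6 and run 5′ to 3′ on the strand of the gene. For Vip the window is chr10:5639068-5639217 on the plus strand, for Cartpt chr13:99900684-99900833 on the minus strand and for Sst chr16:23890845-23890994 on the minus strand.
Vip: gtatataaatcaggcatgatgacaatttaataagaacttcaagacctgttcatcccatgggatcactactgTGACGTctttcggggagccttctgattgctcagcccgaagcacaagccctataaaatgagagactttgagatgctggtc
Cartpt: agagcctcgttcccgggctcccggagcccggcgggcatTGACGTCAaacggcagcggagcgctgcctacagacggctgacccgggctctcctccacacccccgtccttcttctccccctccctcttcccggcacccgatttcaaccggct
Sst: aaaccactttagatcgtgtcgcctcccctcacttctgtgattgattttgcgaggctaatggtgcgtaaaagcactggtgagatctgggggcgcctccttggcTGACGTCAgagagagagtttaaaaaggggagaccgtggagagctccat
The element lay 79 to 74 bases before the start in Vip, 112 to 105 in Cartpt and 48 to 41 in Sst. In the same window TGACGTCA was found before 447 of 32851 RefSeq starts (1.36%), and TGACGT, which includes every TGACGTCA, before 1691 (5.15%). Of 25 listed peptide genes 20 matched the table, and TGACGT was found in 4 of them (Adcyap1, Cartpt, Sst and Vip). A match is a description of these letters and not a site shown to be used.

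The 7 barcodes with 2 or more Vip UMIs were compared with the 157 members without Vip. Of 3845 genes with 50 or more UMIs over both sets, 259 (6.74%) were past 2-fold higher and 734 (19.1%) past 2-fold lower in the Vip barcodes, which held 39640 UMIs in all. A gene at 0 in the 7 has a floor of 75.7 CPM, so a low ratio there rests on few molecules. The 157 include Slc6a9-led members and the 33 with neither gene, so counts in the 99 Gad1-led members without Vip, the closer set, are also given for the leading genes.

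Cbln4, a secreted partner of neurexins and of the netrin receptor Dcc, had the highest ratio. In order of falling Vip count the 7 barcodes had 22, 28, 18, 17, 5, 15 and 0 Cbln4 UMIs, and among the 99 Gad1-led members without Vip 6 had Cbln4, with at most 17. The barcode at 0 was the one with 4 Vip UMIs. The level of Cbln4 was 2649 CPM (2166 to 3207) in the Vip barcodes and 31.3 CPM (21.5 to 43.9) in all members without Vip, 84.7-fold (56.8 to 129) higher. Cartpt was found in all 7, with 39, 68, 17, 20, 1, 51 and 118 UMIs, and in 57 of the 99, with a median of 1 and at most 223. It was 5.39-fold (4.76 to 6.09) higher than in all members without Vip, and the 2 sets overlapped. Its log2 ratio was 2.43, and 4.81 with Vip of 1 or more, which takes in the barcode with 3794 Cartpt UMIs. Cbln2 was found in all 7, with 1 to 9 UMIs each, and in 57 of the 99. Nfia was found in 6 of 7, with at most 8 UMIs, and in 9 of the 99, and was 7.35-fold (3.94 to 13) higher than in all members without Vip. At full depth a UMI of Cartpt was found in 31% of the microglia gate and of Nfia in 24.1%. Single UMIs of either gene, in the 7 or in the 99, are therefore not read as expression. In order of falling Vip count the 7 had 1, 0, 3, 1, 2, 8 and 1 Nfia UMIs, and the 99 had at most 3. A single Vip barcode held 8 of the 16 Nfia UMIs of the 7, and without it the log2 ratio was 1.99 in place of 2.77.

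**Figure D5:**
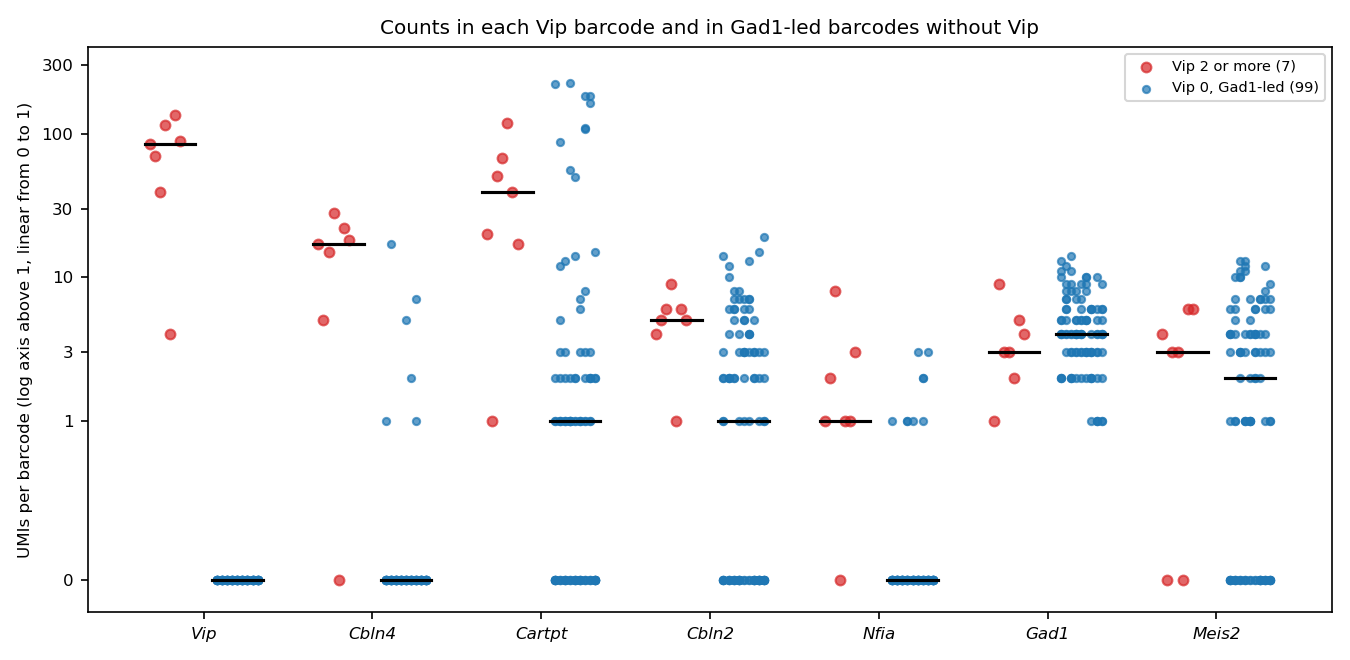
Points give UMIs per barcode of 7 genes in the 7 members with 2 or more Vip UMIs (red, left) and in the 99 Gad1-led members without Vip (blue, right), and bars give medians. The axis is logarithmic above 1 and linear from 0 to 1. Cbln4 was found in 6 of the 7 Vip barcodes and in 6 of the 99, and the ranges of Gad1 and Meis2 overlap.

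Gad1 and Meis2 were found in the 7 and in the 99 alike. Gad1 ran from 1 to 9 UMIs in the 7 and up to 14 UMIs in the 99. Meis2 was found in 5 of 7 Vip barcodes and 65 of the 99. Mpped2, a metallophosphoesterase gene, was found in all 7 and in 34 of the 99, and was 5.13-fold (3.05 to 8.24) higher than in all members without Vip. Fabp5, a fatty acid carrier, was found in all 7 and in 49 of the 99, and was 4.84-fold (2.93 to 7.67) higher than in all members without Vip. Pam, the enzyme that amidates peptides such as the product of Vip, was found in 4 of 7 and in 25 of the 99, and was 8.26-fold (4.58 to 14.2) higher than in all members without Vip, but 1 barcode held 12 of its 18 UMIs. The blue cone opsin gene Opn1sw was 7.44-fold (5.61 to 9.75) higher and lay wholly in 1 of the 7 barcodes, with 69 UMIs. Without that barcode its log2 ratio was -5.58.

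The 12 genes lowest in the 7 were all at 0, and their bounds were small. Prox1 was at least 2.72-fold lower, Lamp5 at least 2.62-fold, Tmem132a at least 2.62-fold and Npy at least 1.85-fold. Lamp5 was found in 27 of 28 Slc6a9-led members, and Prox1 in 22 of those 28 and in 30 of the 33 with neither gene. With Gad1-led members alone on both sides the log2 ratio was 5.44 for Cbln4, 3.74 for Nfia and 1.61 for Cartpt, so all 3 stayed higher in the Vip barcodes. Of the receptors that VIP acts on, Vipr1 had no UMI in any member, and Vipr2 was found in 12 of 171 members at 11.2 CPM and in 348 of 950 RGC gate barcodes at 34.5 CPM.

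A rich Cartpt signal reached beyond the Vip barcodes. Of the 110 Gad1-led members 23 had 10 or more Cartpt UMIs. Among the 23, 18 had Nr4a2, an orphan nuclear receptor gene, 18 had C1ql2, 12 had Nfia, 10 had Pantr1, 9 had Vip and 3 had Igfbp2. Nr4a2 itself was found in 27 of the 110, in none of the 28 Slc6a9-led and in none of the 33 with neither gene. Cartpt stood at 13402 CPM in the Pantr1 barcodes, 17381 CPM in the 34 with neither Igfbp2 nor Pantr1 and 573 CPM in the Igfbp2 barcodes. The barcode with 3794 Cartpt UMIs is among the 34. With the richest barcode of each set left out, an alternative chosen after seeing the data, the levels were 11137 CPM in the Pantr1 barcodes, 1437 CPM in the 34 and 361 CPM in the Igfbp2 barcodes, so the order of the Pantr1 barcodes and the 34 turns on 1 barcode. The companion genes in this paragraph were picked after their values were seen.

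The microglia gate, which should lack amacrine genes, was taken as a rough guide to free RNA. At 3000 UMIs C1ql2 was found in 45.6% of members, 0.421% of RGC gate barcodes and 1.6% of microglia gate barcodes, with full-depth shares of 48.5%, 2.11% and 2.14%. Meis2 was found in 37.4% of members, 16% of the RGC gate and 2.67% of the microglia gate. Lamp5 was found in 18.1% of members, 0.316% of the RGC gate and 1.07% of the microglia gate. The members' shares of these 3 genes stood above those in microglia gate barcodes, which had a median of 3980 UMIs before thinning. Other genes had higher shares there. Car2 was found in 67.3% of members, 21.4% of the microglia gate and 57.7% of all other barcodes. Cartpt was found in 39.2% of members and 21.9% of the microglia gate. Prox1 was found in 46.4% of Slc6a9-led, 7.27% of Gad1-led and 16% of microglia gate barcodes, and Nfia in 35.7% of Slc6a9-led, 12.7% of Gad1-led and 20.3% of microglia gate barcodes. The Gad1-led shares of Prox1 and Nfia were thus below those of the microglia gate. The RGC gate was lower still, at 2.95% for Prox1 and 3.05% for Nfia. The source of these UMIs in the microglia gate was not tested, so its shares of these genes are not a level of free RNA alone. Low counts of these 4 genes in single barcodes are not read as expression, although the counts of barcodes above include them.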

How the data were processed

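UMI counts per gene and barcode were deposited by the authors as 1 pooled matrix of 27999 gene rows and 3237 barcodes with 31361961 UMIs, 3198 to 53709 per barcode. Cell Ranger, Seurat 2.2 and build mm10 are named in the submitters' processing notes, with aligner settings not given in the sources used here. Counts were summed over each set of barcodes and scaled to CPM. Ratios are log2 with 5 CPM added, over genes with 100 or more UMIs (50 within the gate), and called past 2-fold. With 1 pooled sample no p-value is given. For shares each barcode was thinned to 3000 UMIs. Scrublet in scanpy 1.11.5 marked 58 of 2701 barcodes (2.15%) as doublets; none was removed. Ratios and intervals used scipy 1.17.1 and pandas 2.3.3 under Python 3.11.15, with plots from matplotlib 3.10.9. The ratio step was run on simulated counts in which barcodes of a set differed in depth and counting error alone. That run therefore says nothing about the spread between barcodes. Named genes were the 12 highest and 12 lowest ratios in 10% or more of the higher set's barcodes, without mitochondrial, ribosomal and gate genes, plus listed genes past 2-fold and defining list members. Members and lists were chosen with earlier results of these data known.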

Additional observations from a re-analysis of the deposited data

How the results depend on the processing

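The gate held 101 members with a mitochondrial maximum of 5% in place of 171. Without a filter on low counts, the genes past 2-fold were 817 higher over the RGC gate, 506 higher over the other barcodes, 1581 higher and 4350 lower for Vip, and 1362 higher and 1913 lower for Slc6a9-led over Gad1-led. In that order, 17578, 17824, 14132 and 13885 genes were then ranked, against 9970, 10169, 3845 and 3082 with the filter. With 20 CPM added the genes past 2-fold were 292 higher and 394 lower over the RGC gate and 159 higher and 229 lower over the other barcodes. After thinning to 3000 UMIs they were 251 higher and 525 lower over the RGC gate, 122 higher and 347 lower for Vip, and 50 higher and 132 lower for Slc6a9-led. Only 5015, 1853 and 1562 genes were then ranked, in that order, so these lower counts also follow the number of genes ranked. With Vip of 1 or more, 59 of 4004 genes were past 2-fold higher and 325 lower, and the log2 ratios of Tmem132a and C1qa turned to 0.10 and 0.83. Of the alternatives chosen after seeing the data, leaving out members with neither Gad1 nor Slc6a9 gave 471 higher over the other barcodes and 153 higher and 446 lower for Vip, and Gad1-led members alone gave 88 higher and 282 lower for Vip. The genes ranked there were 10127, 2965 and 2364, in that order. Without the barcode richest in Opn1sw its log2 ratio was -5.58, and without barcodes with 10 or more Pde6h UMIs those of Pde6h, Opn1mw and Gnat2 were -0.40, -1.14 and -0.73. Beyond what these alternatives' own construction shows, the cause was not tested. Of 1032 log2 ratios of single genes under the alternatives, 859 lay inside the counting interval or within a small margin of the main value. Another 167 lay outside both and 6 changed sign. The interval had no CPM added, so some main ratios lay outside their own interval and these counts do not measure movement against counting error. Dropping the filter on low counts cannot change a ratio, and setting the median to 0 moved ratios by less than the margin. All 96 values of each were thus bound to stay. Over the other barcodes, thinning gave 344 higher and 790 lower, more than the 309 and 617 at full depth and within 1.5 times of them. In that comparison 7838 genes were ranked after thinning and 10169 at full depth. No paired analysis was possible because the barcodes name no retina, and leaving out each retina was not run for the same reason.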

Other observations

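Genes of rarer amacrine transmitters were near or at 0 in the gate. Th, the first enzyme of dopamine synthesis, had 8 UMIs in 4 members, 3 of them Gad1-led, against 0 in the RGC gate and 3 in the other barcodes. The acetylcholine genes Chat and Slc18a3 had 1 UMI in 1 member and 3 UMIs in 2 members. Slc17a8, the vesicular glutamate transporter of a further amacrine type, had 4 UMIs in 2 members, and Nos1, which makes nitric oxide, had 1 UMI in 1 member against 98 UMIs in 72 RGC gate barcodes. At this depth a count of 0 over the 171 members allows up to 2.58 CPM.

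Other peptide genes were found in few members. Tac1, a tachykinin gene, had 54 UMIs in 12 members, 11 of them Gad1-led, against 328 RGC gate barcodes with the gene. Cck, the cholecystokinin gene, had 68 UMIs in 14 members, against 240 RGC gate barcodes. Penk, an opioid precursor gene, had 19 UMIs in 7 members. Tac2 had 7 UMIs in 1 member, and 8 of the 9 UMIs of Gal, the galanin gene, lay in 1 member. Crh, Nts, Trh, Grp and Cort had 0 UMIs in the gate, and Crh was found in 19 RGC gate barcodes.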
